A study of Homo sapiens with 9 samples.

Results

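The 16 h response of human endothelial cells to the methyltransferase inhibitor AMI-1 was measured against the solvent alone. It rests on 6 of the 9 libraries of the study, 3 with AMI-1 and 3 with DMSO, and on every gene in the table of counts for AMI-1, 18385 of the 18690 genes listed in the study. The groups were chosen by treatment label and not by any measured value. HMEC-1 cells are immortalised endothelial cells from the small vessels of human skin, and all cells were kept in MCDB131 medium at 5.5 mM glucose. Treated cells received 100 µM AMI-1 in DMSO for 16 h, and control cells received DMSO alone. The remaining 3 libraries received a second inhibitor, AMI-5, at the same dose and for the same time. HMEC-1 is a single transformed line, and the labels do not say whether libraries came from separate cultures. Libraries were paired by replicate number in the main fit. Its p-values therefore measure only how the changes within these pairs vary, and leave out the spread between replicate numbers.

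Protein arginine methyltransferases transfer methyl groups from S-adenosylmethionine to arginine side chains of histones, splicing factors and signalling proteins. AMI-1 is a symmetrical urea that joins sulfonated naphthol rings and is known as an inhibitor of these enzymes. A part of the results concerns genes controlled by the aryl hydrocarbon receptor (AHR). AHR is a cytoplasmic receptor for dioxins, polycyclic aromatic compounds and indoles. A bound ligand sends AHR to the nucleus, where it pairs with ARNT and binds DNA at sites with the core letters GCGTG. Its best known targets are the cytochrome P450 genes CYP1A1 and CYP1B1, which oxidise aromatic compounds, and AHRR and TIPARP, whose products restrain the receptor.

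The starts of 3 of these targets are shown because these genes passed the test and because GCGTG is the letter sequence that AHR and ARNT recognise. CYP1B1 passed too, but no RefSeq window was found for it. Each window runs from 250 bases before to 50 bases after an annotated RefSeq start (GRCh38.p14, gene strand, 5′ to 3′), and capitals mark GCGTG on either strand, so that CACGC is a copy on the other strand. The windows lie at chr15:74725479-74725778 on the minus strand for CYP1A1, at chr3:156674340-156674639 on the plus strand for TIPARP and at chr5:321464-321763 on the plus strand for AHRR.
CYP1A1: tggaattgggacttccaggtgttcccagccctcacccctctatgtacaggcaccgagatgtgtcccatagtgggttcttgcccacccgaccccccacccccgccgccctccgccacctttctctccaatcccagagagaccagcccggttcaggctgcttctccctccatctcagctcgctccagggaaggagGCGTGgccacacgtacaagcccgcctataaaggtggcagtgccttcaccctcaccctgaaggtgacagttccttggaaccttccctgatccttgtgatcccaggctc
TIPARP: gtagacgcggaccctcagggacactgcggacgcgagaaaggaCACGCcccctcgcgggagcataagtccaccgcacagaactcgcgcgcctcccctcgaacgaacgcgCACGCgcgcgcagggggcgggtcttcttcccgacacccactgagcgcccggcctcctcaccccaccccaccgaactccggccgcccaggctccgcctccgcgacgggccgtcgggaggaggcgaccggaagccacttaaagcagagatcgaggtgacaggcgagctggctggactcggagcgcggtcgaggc
AHRR: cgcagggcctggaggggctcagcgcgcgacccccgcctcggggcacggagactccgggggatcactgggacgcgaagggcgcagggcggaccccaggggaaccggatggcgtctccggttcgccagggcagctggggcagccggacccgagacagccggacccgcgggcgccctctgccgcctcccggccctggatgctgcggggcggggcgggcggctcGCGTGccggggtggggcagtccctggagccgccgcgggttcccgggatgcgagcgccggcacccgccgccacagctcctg
The CYP1A1 window holds 1 copy, which begins 57 bases before the start. The TIPARP window holds 2 copies on the other strand, which begin 208 and 142 bases before the start, and the further 2 windows listed for TIPARP hold none. The AHRR window holds 1 copy, 30 bases before the start, and a second window listed for AHRR holds 2, which begin 247 and 42 bases before its start. The motif is common: 36.5% of the 35116 windows in the table hold it. RefSeq windows were found for 35 of the 50 genes higher with AMI-1, of which 16 had a copy in at least 1 window, and for 16 of the 33 lower genes, of which 9 did. Among tested genes with a window the share was 58.6%. A copy is a match of letters and not a measured binding site.

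With AMI-1, 83 of 18107 genes tested passed an adjusted p of 0.05 (0.458% of genes; quasi-likelihood test of edgeR with replicate number as a block and Benjamini-Hochberg adjustment). Of these, 50 rose (0.276% of genes tested) and 33 fell (0.182%). Rises were larger than falls: 23 rises and 6 falls exceeded 1.5-fold, 11 and 1 exceeded 2-fold, and 3 and 0 exceeded 4-fold. These counts of rises include CYP1B1-AS1 and CYP1A1, both over 4-fold. Both are listed in the table for AMI-1 alone, and their direction is no evidence, as explained below. The median log2 fold change was 0.58 among the rises and -0.44 among the falls, against 0.00 over all genes, whose middle 50% lay between -0.08 and 0.09. Most of the transcriptome stayed close to control, with 16038 genes (88.6%) within 1.2-fold. Without adjustment 864 genes were higher (4.77%) and 908 lower (5.01%) at p under 0.05. The called genes near the threshold were small changes, such as TSC22D1 at 0.30 ± 0.07 (log2 ± SE, adjusted p = 0.0486).

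**Figure D1:**
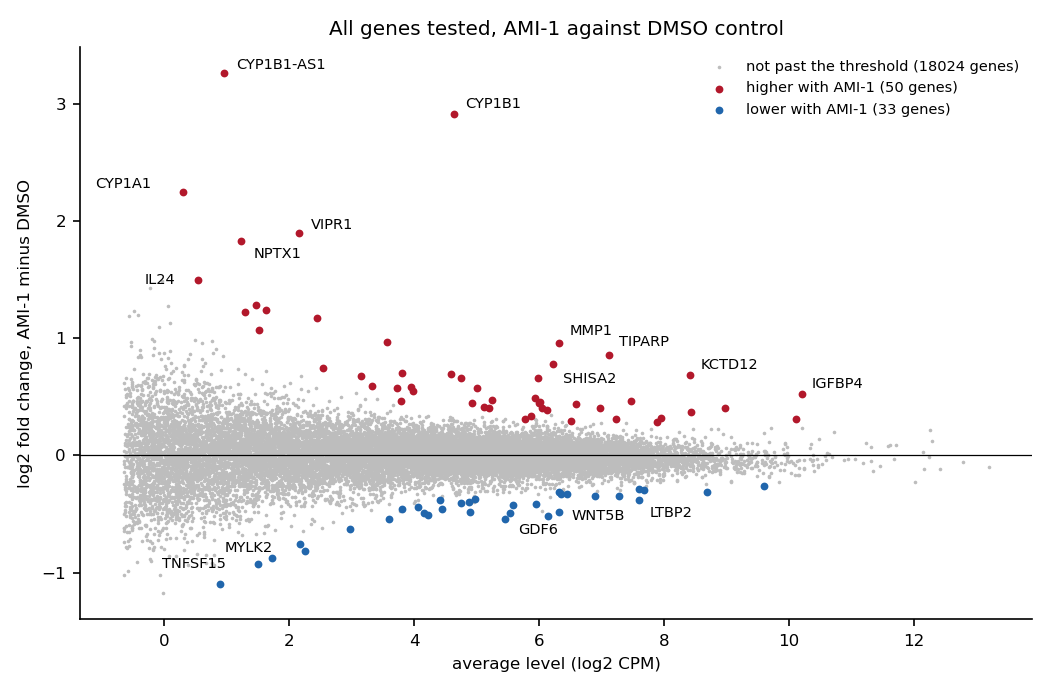
Each point is 1 of 18107 genes tested, with its average level in log2 CPM (counts scaled to library size) on the horizontal axis and its log2 fold change, AMI-1 minus DMSO, on the vertical axis. Red points are the 50 genes higher and blue points the 33 genes lower with AMI-1, and CYP1B1-AS1, CYP1B1 and CYP1A1 stand highest at 3.26, 2.91 and 2.25.

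Total counts ran from 14561667 to 24693020 per library, and mitochondrial transcripts held 2.20% to 3.59% of them. Libraries with the same replicate number resembled each other more than libraries of the same treatment: of the sum of squares over the 6 libraries, 81.5% went with replicate number and 7.48% with treatment. The column names share a prefix within each number, and the labels do not say what the libraries of a number have in common. Many genes changed within each pair while the groups as a whole overlapped. Groups did not overlap for 23 of the 50 rises and 11 of the 33 falls, against 710 of all genes tested (3.92%). All 83 called genes moved the same way in 3 of 3 pairs, as 5439 of all genes did (30.0%). Without the block edgeR called 0 genes (135 at unadjusted p under 0.05) and DESeq2 called 2, CYP1B1 and SHISA2.

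CYP1B1, a target of AHR, had the largest rise among the genes listed in both tables. The list of AHR targets was written with earlier results of these data known. Of its 13 genes 10 were tested. Of these 4 rose, 0 fell and 10 lay above 0, with a median log2 fold change of 0.78. CYP1A1 and SERPINB2 are listed in the table for AMI-1 alone, where a gene this scarce in control passed a minimum on the mean count through its treated libraries, so their direction is no evidence. Over the 8 targets in both tables, a count made after seeing the data, 3 rose, 0 fell and 8 lay above 0, with a median of 0.48. In bulk RNA fewer cells that express a gene and less RNA per cell cannot be told apart. The cytochrome P450 gene CYP1B1 (ENSG00000138061.7) was at 6.05, 4.43 and 6.53 CPM in control libraries 1, 2 and 3 and at 52.1, 21.1 and 57.5 CPM in AMI-1 libraries 1, 2 and 3. The groups did not overlap, and AMI-1 library 2 was the lowest of the treated ones. The fitted rise was 7.52-fold (log2 2.91 ± 0.13 SE, adjusted p = 6.6e-12), and it ran from 2.75 to 3.12 on the log2 scale over the other settings tried. CYP1A1, the enzyme most used as a read-out of AHR, was scarce, with 9, 5 and 7 reads in control and 28, 16 and 62 reads in AMI-1 libraries 1, 2 and 3. In CPM it went from 0.598, 0.299 and 0.297 to 1.94, 0.897 and 2.46, again without overlap. Its fitted difference of 4.74-fold (log2 2.25 ± 0.33, adjusted p = 0.001) missed the threshold in the Wald test of DESeq2 (adjusted p = 0.0740), and it is given as a description because of that minimum.

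The antisense transcript CYP1B1-AS1 is likewise listed in the table for AMI-1 alone, and its direction is no evidence. It had 11, 0 and 8 reads in control and 85, 9 and 93 in AMI-1 libraries 1, 2 and 3, so that AMI-1 library 2 lay within the range of the controls. The fitted difference was 3.26 ± 0.29 (log2, adjusted p = 2.84e-06). CYP1B1 and CYP1B1-AS1 overlap on opposite strands in GENCODE, and reads counted without a stated strand cannot be assigned to one or the other.

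Feedback regulators of AHR rose less. TIPARP, an ADP-ribosyltransferase gene, was at 82.6, 119 and 95.5 CPM in control libraries 1, 2 and 3 and at 165, 172 and 198 CPM in AMI-1 libraries 1, 2 and 3. All treated libraries were above all controls, at 1.81-fold (log2 0.86 ± 0.08, adjusted p = 3.2e-06). AHRR, which encodes the repressor that competes for ARNT, went from 23.1, 13.5 and 18.4 CPM to 40.3, 19.5 and 30.4 CPM. Here the groups overlapped, because both libraries numbered 2 were low, while each pair rose, at 0.70 ± 0.09 in the fit (adjusted p = 0.000159). AHRR overlaps PDCD6 on the same strand in GENCODE, and PDCD6 was at -0.04 (adjusted p = 0.9005). CYP1B1, TIPARP and AHRR kept their calls without any 1 pair, with adjusted p up to 0.0127. CYP1A1 stayed past the threshold too (adjusted p up to 0.0229), but its direction is no evidence.

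The other AHR targets did not pass. NQO1, a quinone reductase gene shared with the NRF2 pathway, was at 0.25 ± 0.06 (adjusted p = 0.0940), with all AMI-1 libraries above all controls. SERPINB2, an inhibitor of plasminogen activators, was at 1.43 ± 0.34 (adjusted p = 0.0686) and IL1B, an inflammatory cytokine, at 0.91 ± 0.27 (adjusted p = 0.181), the latter lower in the pair numbered 2. The notch target HES1, the acyltransferase gene LPCAT2 and the amino acid transporter SLC7A5 lay between 0.13 and 0.16. Under GC correction 8 members rose, and 285 of all 18107 genes did. These 8 were counted over all 10 tested members and include CYP1A1. For CYP1A1 and SERPINB2 direction is no evidence. None of the 10 genes for the receptor and its partners was called: AHR itself was at -0.11 ± 0.06 (adjusted p = 0.600), ARNT at 0.09 ± 0.07 (adjusted p = 0.721) and the coactivator gene NCOA7 at 0.25 ± 0.08 (adjusted p = 0.227). That 0 is near the share of 0.458% called over all genes tested.

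**Figure D2:**
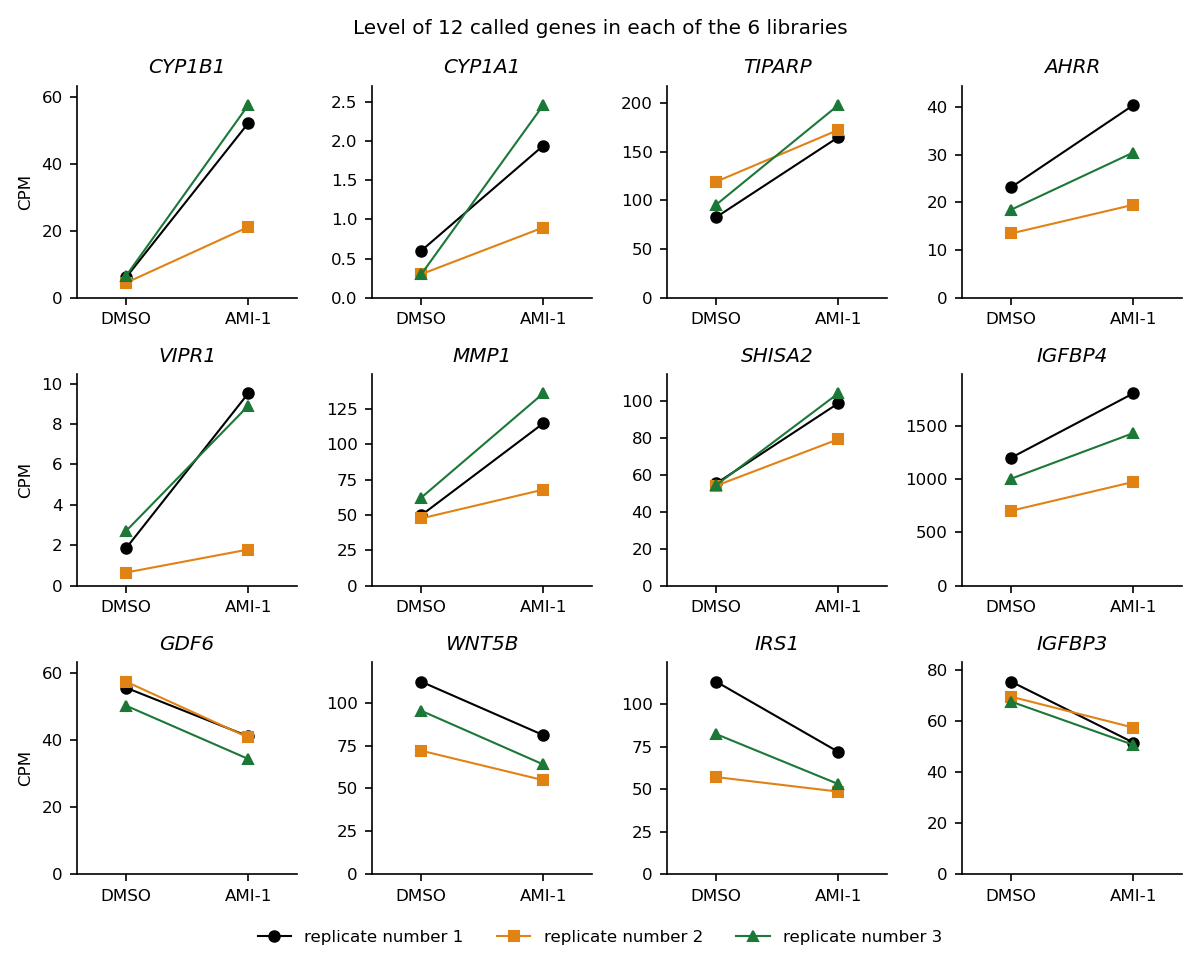
Panels give the level in CPM (vertical axis, from 0) of 12 genes in each library with DMSO or AMI-1, and lines join the libraries of a replicate number. CYP1B1 goes from 4.43 to 6.53 CPM with DMSO to 21.1 to 57.5 CPM with AMI-1, while in VIPR1, AHRR and IGFBP4 the pair numbered 2 starts and ends below the others.

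Receptor and secreted factor genes followed among the rises. VIPR1, which encodes a receptor for vasoactive intestinal peptide coupled to cyclic AMP, was at 1.86, 0.658 and 2.71 CPM in control libraries 1, 2 and 3 and at 9.51, 1.79 and 8.90 CPM in AMI-1 libraries 1, 2 and 3. AMI-1 library 2 lay within the control range, yet it was above its own control (log2 1.31). The fit gave 3.71-fold (1.89 ± 0.18, adjusted p = 3.2e-06). SECTM1, whose secreted product binds CD7 on lymphocytes, went from 4.79, 1.14 and 3.81 CPM to 12.8, 1.91 and 7.94 CPM, with overlap and the same low libraries numbered 2 (1.17 ± 0.15, adjusted p = 0.000219). LIF, a cytokine of the interleukin 6 family, went from 14.5, 10.6 and 11.7 CPM to 23.0, 13.7 and 18.8 CPM, with overlap at the lowest treated library (0.58 ± 0.10, adjusted p = 0.00499). LIF was the 1 rise among 5 ligands and 12 receptor or signalling genes of that family, and its call ended without the pair numbered 1 (adjusted p = 0.185).

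IL8, the neutrophil chemokine also named CXCL8, was the 1 rise among 22 NF-kB and inflammation genes. It was at 6.45, 8.79 and 8.18 CPM in control libraries 1, 2 and 3 and at 7.85, 13.5 and 13.8 CPM in AMI-1 libraries 1, 2 and 3, where AMI-1 library 1 lay among the controls (0.59 ± 0.12, adjusted p = 0.0156). Its call ended without the pair numbered 3 (adjusted p = 0.0633), in voom (adjusted p = 0.0604), in the Wald test of DESeq2 (adjusted p = 0.342) and in the fit of 9 libraries (adjusted p = 0.222). The monocyte chemokine gene CCL2 was at 0.53 ± 0.12 (adjusted p = 0.0572). On that list 17 of 22 members lay above 0, with a median of 0.11.

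Matrix and protease genes went in both directions. MMP1, the interstitial collagenase, was at 49.8, 47.6 and 62.2 CPM in control libraries 1, 2 and 3 and at 115, 67.9 and 136 CPM in AMI-1 libraries 1, 2 and 3. Every treated library was above every control, at 1.94-fold (0.96 ± 0.09, adjusted p = 5.63e-06). WTAPP1, a pseudogene that overlaps MMP1 on the opposite strand, went from 8.24, 6.398 and 8.77 CPM to 17.1, 9.81 and 19.1 CPM (0.96 ± 0.11, adjusted p = 9.13e-05), and its reads may not be separable from those of MMP1. MMP10, which overlaps WTAPP1 too, was at -0.08 (adjusted p = 0.956). MMP1 was the only call among 29 tested protease and inhibitor genes.

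Among 40 collagen, laminin and other matrix genes 1 rose and 1 fell. The basement membrane gene NID2 rose from 53.9, 46.6 and 45.9 CPM to 63.5, 60.0 and 57.7 CPM, without overlap (0.31 ± 0.07, adjusted p = 0.0482), and lost its call without the pair numbered 1 (adjusted p = 0.678). LTBP2, which encodes a microfibril protein related to the binders of latent TGF-beta, fell from 267, 182 and 211 CPM to 201, 145 and 160 CPM, with overlap (-0.38 ± 0.06, adjusted p = 0.00164; 0.349 without the pair numbered 1). GALNT5, an enzyme that starts mucin-type glycosylation, rose from 11.4, 7.65 and 12.3 CPM to 19.4, 11.2 and 20.9 CPM (0.70 ± 0.10, adjusted p = 0.000899), where AMI-1 library 2 fell among the controls.

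Genes of the insulin-like growth factor (IGF) axis split by member. IGFBP4, a secreted binding protein that holds IGF away from its receptor, was the most abundant rise, at 1199, 702 and 1002 CPM in control libraries 1, 2 and 3 and at 1800, 972 and 1428 CPM in AMI-1 libraries 1, 2 and 3. The groups overlapped, since the pair numbered 2 was low throughout, but the pairs rose alike, by 0.59, 0.47 and 0.51 on the log2 scale (0.52 ± 0.05, adjusted p = 7.79e-06). IGFBP5 rose by 0.31 ± 0.07 (adjusted p = 0.0447; 0.359 without the pair numbered 1). IGFBP3, the main carrier of IGF in plasma, fell from 75.3, 69.4 and 67.4 CPM to 51.4, 57.3 and 50.6 CPM, without overlap (-0.41 ± 0.07, adjusted p = 0.00557). IRS1, the adaptor that passes the signal of the insulin and IGF receptors on, fell from 113, 57.0 and 82.4 CPM to 71.9, 48.5 and 52.97 CPM, with overlap (-0.52 ± 0.08, adjusted p = 0.00144). Over 14 tested genes of the axis the median was -0.01, and IGFBP3 and IRS1 lost their calls without the pair numbered 1 (adjusted p = 0.639 and 0.171).

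WNT genes showed a comparable split. SHISA2, whose product holds receptors for WNT and FGF back inside the cell, was at 55.4, 54.2 and 54.5 CPM in control libraries 1, 2 and 3 and at 98.9, 79.4 and 104 CPM in AMI-1 libraries 1, 2 and 3. The controls were nearly equal and lay below every treated library, at 1.71-fold (0.78 ± 0.07, adjusted p = 4.89e-06). WNT5B, a ligand of the non-canonical branch, fell from 112, 72.1 and 95.4 CPM to 81.2, 54.8 and 64.0 CPM (-0.48 ± 0.07, adjusted p = 0.000629), with overlap between groups. DKK1, a secreted WNT antagonist, fell from 120, 154 and 126 CPM to 86.8, 134 and 97.2 CPM (-0.34 ± 0.07, adjusted p = 0.0132), with AMI-1 library 2 above 2 of the controls. In all, 1 of 34 tested WNT and FGF genes rose and 2 fell, with 0 of 13 FGF genes called. The 0 for FGF genes is near the share of 0.458% called over all genes tested. WNT5B and DKK1 lost their calls without the pair numbered 1 (adjusted p = 0.0532 and 0.938), and SHISA2 kept its call.

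Among 11 tested bone morphogenetic protein (BMP) ligands 2 fell. GDF6, a ligand of that family, went from 55.6, 57.4 and 50.2 CPM to 41.1, 40.8 and 34.3 CPM, without overlap (-0.49 ± 0.07, adjusted p = 0.000966), and kept its call without any 1 pair. BMP4, a vascular and mesodermal morphogen, went from 27.8, 19.6 and 27.6 CPM to 21.5, 13.9 and 19.7 CPM, where the treated libraries numbered 1 and 3 were above the control numbered 2 (-0.45 ± 0.09, adjusted p = 0.0128; 0.225 without the pair numbered 1). None of 16 receptor or antagonist genes or 12 SMAD and ID genes was called, which is near the share of 0.458% called over all genes tested. The whole list of 39 had a median of -0.02. INHBA, a subunit of activin, was at 0.33 ± 0.08 (adjusted p = 0.0932), and the BMP antagonist gene GREM1 at 0.23 ± 0.06 (adjusted p = 0.136).

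Angiogenic and guidance genes gave few calls. APLN, the apelin gene of endothelial tip cells, fell from 47.5, 14.1 and 43.1 CPM to 33.1, 11.8 and 28.6 CPM (-0.49 ± 0.09, adjusted p = 0.00643), with both libraries numbered 2 far below the rest, and it lost its call without the pair numbered 1 (adjusted p = 0.354). Of 28 tested angiogenic and vasoactive genes it was the only call, and VEGFA was at 0.31 ± 0.07 (adjusted p = 0.0577). NTN4, a laminin-related netrin of basement membranes, rose from 424, 458 and 422 CPM to 565, 552 and 608 CPM, without overlap (0.40 ± 0.06, adjusted p = 0.000983). The axon repellent gene SLIT2 fell from 90.3, 86.4 and 87.7 CPM to 71.4, 67.4 and 73.9 CPM, also without overlap (-0.31 ± 0.07, adjusted p = 0.0271). Of 21 guidance genes 18 lay below 0, with a median of -0.12 and medians of -0.14, 0.0068 and -0.20 in pairs 1, 2 and 3. NTN4 and SLIT2 lost their calls without the pair numbered 1 (adjusted p = 0.100 and 0.919).

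Calls among hypoxia genes lay among the targets. Of 21 tested targets 3 rose, while 0 of 7 HIF pathway genes and 0 of 20 glucose uptake and glycolysis genes were called. Over all genes tested 0.276% rose and 0.182% fell, so 0 calls among so few genes is near that share. NDRG1, a stress-induced cytoplasmic protein gene, went from 124, 85.4 and 118 CPM to 166, 121 and 145 CPM (0.41 ± 0.06, adjusted p = 0.00178). STC2 and STC1, which encode secreted stanniocalcins, rose by 0.47 ± 0.07 and 0.46 ± 0.10 (adjusted p = 0.00224 and 0.0447). STC1 did not overlap between groups and STC2 did. In the 7 other fits with the replicate block STC2 was called in 7 and STC1 in 3. The call of STC1 also ended without the pair numbered 3 (adjusted p = 0.141). BNIP3L, a mitophagy receptor gene, was at 0.27 ± 0.06 (adjusted p = 0.0599). Without the pair numbered 1 none of the 48 genes of the list was called, and without the pair numbered 2 or 3 there were 5 and 6. Over all genes these fits made 31, 597 and 142 calls.

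Transcription factor genes differed in how evenly the pairs changed. EGR1, an immediate early zinc finger gene, was at 51.7, 42.2 and 50.5 CPM in control libraries 1, 2 and 3 and at 71.2, 104 and 60.0 CPM in AMI-1 libraries 1, 2 and 3. The groups did not overlap, but the pair numbered 2 rose by 1.29 on the log2 scale and the others by 0.46 and 0.25, unlike most rises (0.66 ± 0.12, adjusted p = 0.00944). Its change without that pair was 0.35 (adjusted p = 0.0125), and neither robust edgeR (adjusted p = 0.421) nor the Wald test of DESeq2 (adjusted p = 0.999994) called it. KLF9, a target of glucocorticoid and thyroid hormone receptors, rose from 43.0, 81.0 and 41.9 CPM to 58.5, 103 and 63.1 CPM (0.46 ± 0.07, adjusted p = 0.00166), and SOX9, a regulator of cartilage, fell from 19.1, 12.4 and 16.9 CPM to 14.5, 9.76 and 11.1 CPM (-0.46 ± 0.10, adjusted p = 0.0404). Both overlapped between groups, and both lost their calls without the pair numbered 1 (adjusted p = 0.0949 and 0.354), SOX9 also without the pair numbered 3 (adjusted p = 0.157).

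Cell cycle lists held 1 call. CCND1, which encodes cyclin D1, fell from 246, 211 and 223 CPM to 193, 177 and 183 CPM, without overlap (-0.30 ± 0.06, adjusted p = 0.0156; 0.977 without the pair numbered 1). It was the only call among 20 genes of cyclin D, its kinases and RB, where MYC was at -0.30 ± 0.07 (adjusted p = 0.0599) and the inhibitor gene CDKN1B at 0.28 ± 0.07 (adjusted p = 0.0968). None of 34 S phase genes, 31 mitosis genes or 19 p53 targets was called, with medians of 0.02, 0.00 and 0.04. With 0.458% of all genes tested called, 0 calls among so few genes is near that share. AKAP12, a scaffold that anchors protein kinase A, rose from 991, 972 and 1004 CPM to 1259, 1162 and 1253 CPM, without overlap (0.31 ± 0.05, adjusted p = 0.00496; 0.599 without the pair numbered 1).

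The remaining large rises came from genes on none of the lists. KCTD12, an auxiliary subunit of GABA-B receptors, went from 239, 284 and 264 CPM to 427, 356 and 486 CPM (0.68 ± 0.08, adjusted p = 6.11e-05), and APOLD1, an early response gene of endothelium, from 19.9, 20.6 and 21.7 CPM to 34.2, 26.0 and 38.6 CPM (0.66 ± 0.09, adjusted p = 0.000899). Neither overlapped between groups, and both kept their calls without any 1 pair. CYGB, which encodes the globin cytoglobin, rose from 8.91, 2.81 and 8.35 CPM to 16.0, 4.88 and 11.6 CPM (0.67 ± 0.12, adjusted p = 0.00787; 0.305 without the pair numbered 1). SLC37A2, a sugar phosphate exchanger gene, rose from 6.38, 3.11 and 3.73 CPM to 7.85, 5.94 and 7.54 CPM (0.75 ± 0.15, adjusted p = 0.0188; 0.0776 without the pair numbered 3), and in both of these genes the groups overlapped.

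The remaining large falls were of similar size. FJX1, a secreted homolog of the fly growth regulator four-jointed, went from 73.0, 30.8 and 53.6 CPM to 51.3, 23.8 and 32.9 CPM (-0.54 ± 0.08, adjusted p = 0.000966), with overlap, and kept its call without any 1 pair. The cadherin gene CDH4 went from 26.3, 15.1 and 21.4 CPM to 19.0, 10.7 and 15.2 CPM (-0.49 ± 0.09, adjusted p = 0.0105), and SEPW1, a selenoprotein gene, from 64.4, 36.6 and 63.8 CPM to 48.0, 31.1 and 42.7 CPM (-0.42 ± 0.08, adjusted p = 0.00914). LRRC17, a leucine-rich repeat protein gene, was at 12.2, 16.9 and 13.7 CPM and then 8.19, 10.8 and 10.1 CPM (-0.54 ± 0.10, adjusted p = 0.0128). The muscle myosin kinase gene MYLK2 was at 4.92, 6.28 and 5.43 CPM and then 3.47, 3.98 and 2.66 CPM (-0.75 ± 0.15, adjusted p = 0.0206), the latter 2 genes without overlap. CDH4, SEPW1 and LRRC17 lost their calls without the pair numbered 1 (adjusted p = 0.274, 0.317 and 0.191), and MYLK2 without the pair numbered 3 (adjusted p = 0.130).

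Of the falls 25 of 33 were protein-coding, and of the rises 45 of 50; this difference was not tested. ZFHX4-AS1, antisense to the transcription factor gene ZFHX4, fell from 18.1, 27.9 and 19.8 CPM to 12.5, 17.7 and 15.6 CPM, without overlap (-0.51 ± 0.09, adjusted p = 0.0105), while ZFHX4 was at -0.09 (adjusted p = 0.658). The processed pseudogene RP11-394D2.1 (-0.82 ± 0.15, adjusted p = 0.0105), RP11-525A16.4 (-0.63 ± 0.14, adjusted p = 0.0404) and the antisense transcript RP11-368I7.2 (-0.44 ± 0.10, adjusted p = 0.0472) also fell, each with overlap. All 4 lost their calls without 1 pair (adjusted p up to 0.197, 0.0949, 0.329 and 0.220). Of 81 called genes placed in GENCODE, 28 overlap another tested gene, and pseudogene and antisense counts are uncertain where strand is unknown.

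A further set of called genes lies outside the rule for named genes and was chosen after the values were seen. NPTX1, a secreted pentraxin gene, rose from 1.33, 0.478 and 1.102 CPM to 5.21, 1.01 and 4.21 CPM (1.83 ± 0.22, adjusted p = 0.000113), and IL24, a cytokine of the interleukin 10 family, from 0.798, 0.419 and 0.848 CPM to 2.29, 1.402 and 2.22 CPM (1.497 ± 0.26, adjusted p = 0.00508). The groups overlapped in NPTX1 and not in IL24. The transferrin receptor gene TFRC, the drug exporter gene ABCB1, the thioredoxin-binding gene TXNIP and the podoplanin gene PDPN rose, all with log2 changes under 0.5, and all lost their calls without the pair numbered 1 (adjusted p = 0.191, 0.493, 0.138 and 0.787). Among falls, TNFSF15, a cytokine of endothelium that limits vessel growth, went from 2.86, 4.54 and 3.35 CPM to 1.67, 2.24 and 1.75 CPM, without overlap (-0.93 ± 0.18, adjusted p = 0.0144). The transglutaminase gene TGM2, the heparan sulfate sulfatase gene SULF1 and RGS4, a regulator of G protein signalling, fell by 0.31, 0.38 and 0.26 on the log2 scale, and they lost their calls without that pair too (adjusted p = 0.693, 0.784 and 0.966).

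The pair of libraries numbered 2 gave the smallest change for most rises. Its change was the smallest in size for 35 of 50 rises and 17 of 33 falls. Among the rises the median log2 difference was 0.60, 0.49 and 0.58 in pairs 1, 2 and 3, and among the falls it was -0.42, -0.36 and -0.48. Leaving out the pair numbered 1 left 31 calls, leaving out the pair numbered 2 gave 597 (251 higher and 346 lower), and leaving out the pair numbered 3 gave 142. Of the 50 rises 18 kept their call without each pair in turn, and of the 33 falls 3 did, namely GDF6, FJX1 and TNFSF15. The 18 include CYP1A1 and CYP1B1-AS1, whose direction is no evidence. Correction for transcript GC content raised the number of calls to 700, with 285 higher and 415 lower, so that the split turned from mostly rises to mostly falls, and all 83 genes stayed among them. The called rises had a median GC content of 47.9% and the falls 52.0%, against 48.1% over all genes, and the part of GC content in the split was not tested.

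**Figure D3:**
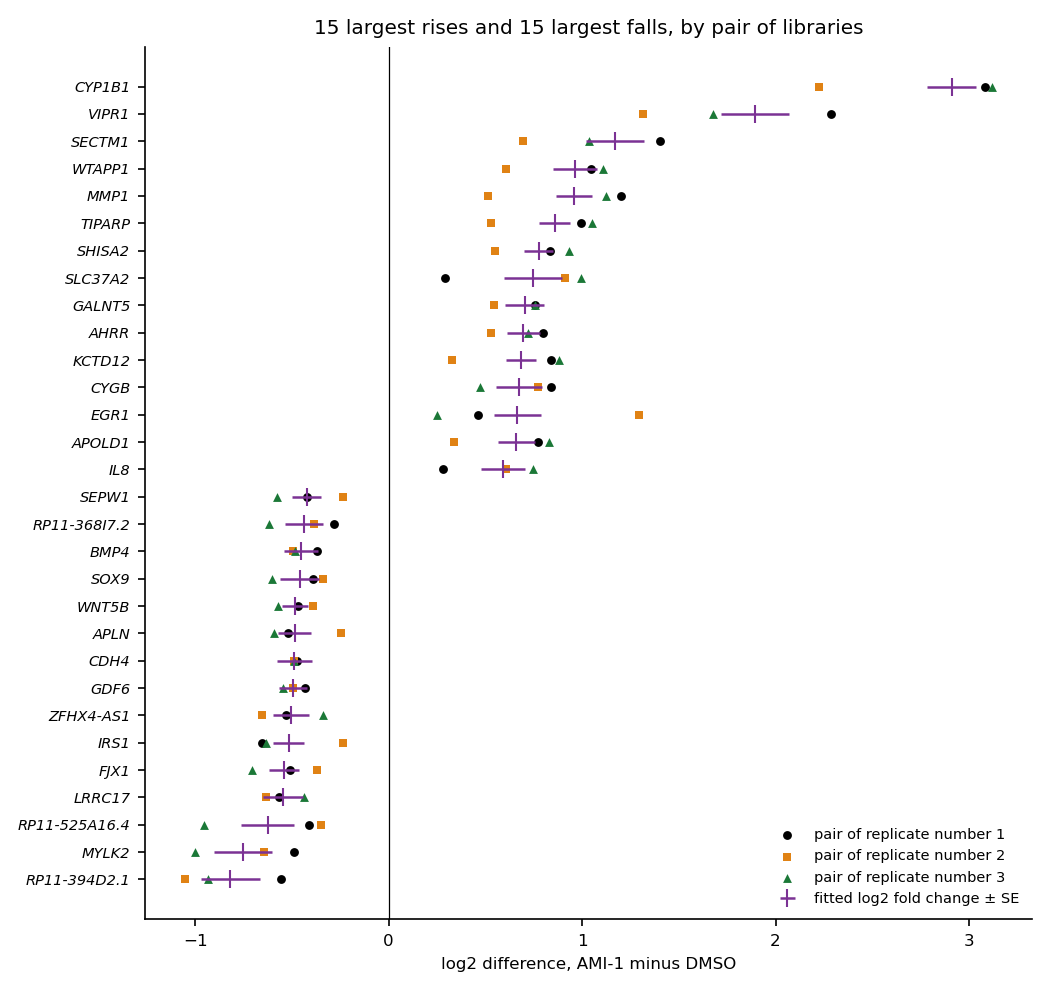
For the 15 largest rises and 15 largest falls under the naming rule, points give the log2 difference, AMI-1 minus DMSO, in each pair of libraries, and purple bars the fitted log2 fold change ± SE. All points of a gene lie on the same side of 0, and the pair numbered 2 lies nearest to 0 in CYP1B1, VIPR1, MMP1, TIPARP and SHISA2 but farthest in EGR1.

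Gene lists put single calls against the rest of each pathway. Of 38 lists 15 had at least 1 call and 23 had none, and 54 of the 83 called genes were on no list. Since 0.458% of all genes tested were called, 0 calls in a list of this size is near that share. The 17 tested arginine methyltransferase and partner genes had 0 calls and a median of -0.02: PRMT1 was at -0.18 ± 0.06 (adjusted p = 0.282), CARM1 at -0.03 ± 0.06 (adjusted p = 0.922), PRMT5 at -0.11 ± 0.06 (adjusted p = 0.581) and PRMT6 at 0.19 ± 0.08 (adjusted p = 0.427). The sign for CARM1 turned positive under GC correction. Of 50 lysine methyltransferase and demethylase genes 0 were called, and 0 had an unadjusted p under 0.05, and the H3K4 methyltransferase gene SETD7 was at -0.0029 ± 0.06 (adjusted p = 0.993). At that unadjusted p 4.77% of all genes tested were higher and 5.01% lower.

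Some lists lay to 1 side without a call. Ribosome biogenesis genes were below 0 in 56 of 59, with a median of -0.15, and 31 of them at unadjusted p under 0.05; the nucleolar chaperone gene NPM1 was at -0.23 ± 0.06 (adjusted p = 0.0968). Over all genes tested 908 (5.01%) were lower at that unadjusted p. Under GC correction 26 of the 59 fell, and 415 of all 18107 genes did. Actin genes and targets of SRF or YAP were below 0 in 28 of 33 (median -0.11, 0 called, 8 falling under GC correction), with the focal adhesion gene ZYX at -0.22 ± 0.06 (adjusted p = 0.138). Interferon response genes were above 0 in 35 of 39 (median 0.09, 0 called), and mitochondrially encoded transcripts in 13 of 13 (median 0.11, 0 called), for which the medians of pairs 1, 2 and 3 were -0.00, 0.15 and 0.17. These medians kept their signs in 11 of 11 other settings. Over all genes tested 9119 lay above 0 and 8988 below, and genes of a list share regulation, so the counts are descriptions.

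**Figure D4:**
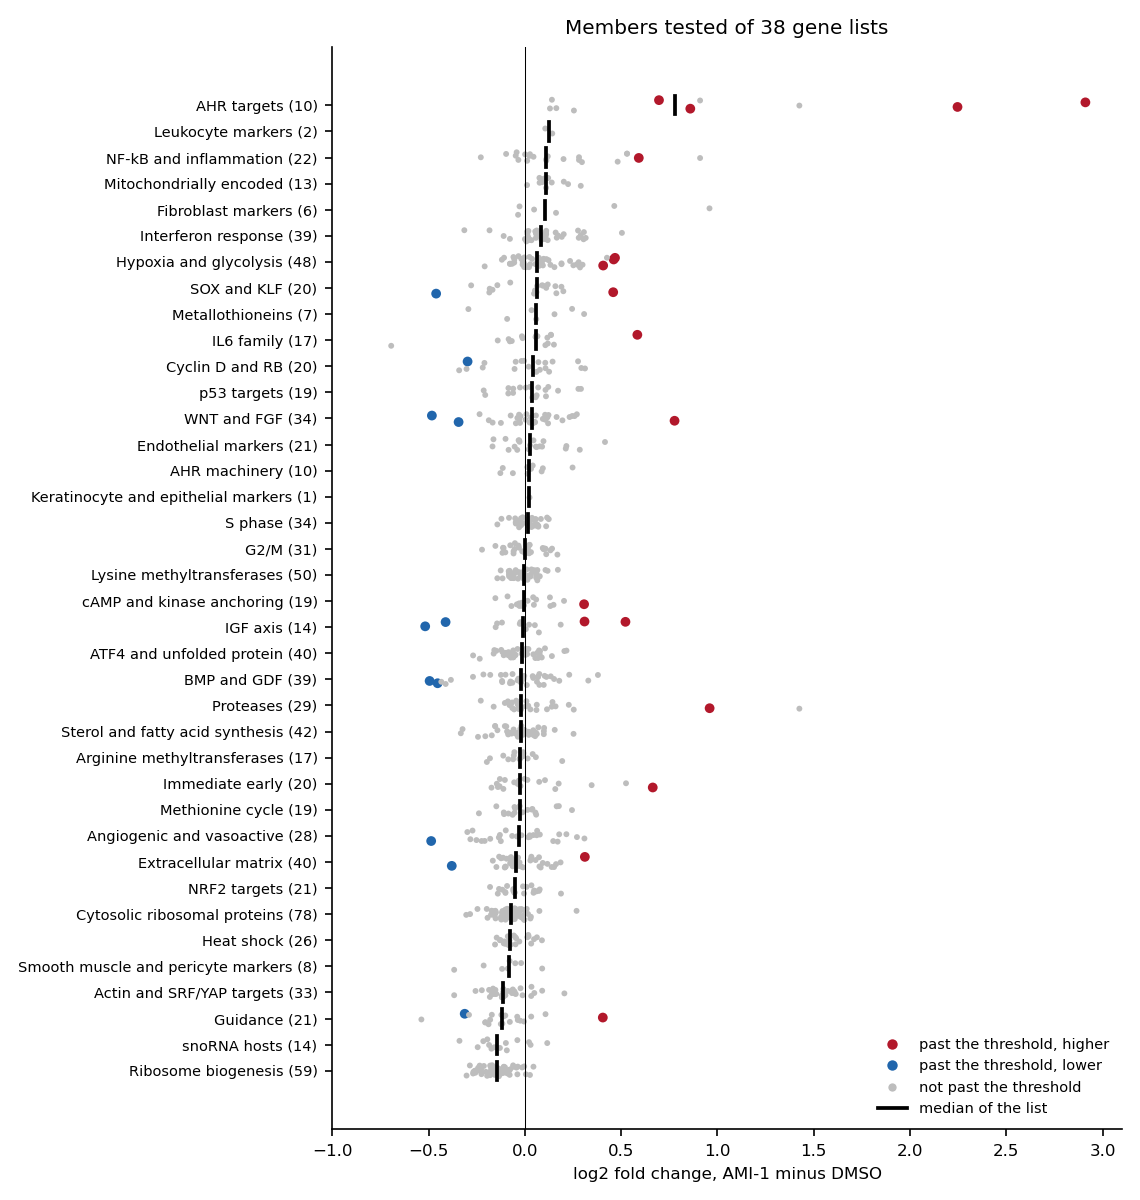
Points are members tested of 38 gene lists (number tested in brackets), placed by log2 fold change, AMI-1 minus DMSO, with red and blue for genes past the threshold and a black bar at the median. AHR targets have the highest median, 0.78 (0.48 over the 8 in both tables), and the ribosome biogenesis list lies lowest at -0.15. The lists were written with earlier results of these data known, so this order is a description.

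Markers of the labelled cell type were present. Among 21 tested endothelial markers 0 were called, with a median of 0.03. Their summed level was 1233 to 1730 CPM in control and 1350 to 1656 CPM in AMI-1 libraries, below that of the fibroblast markers. CDH5, the cadherin of endothelial junctions, was at 149 to 198 CPM in control and 161 to 190 CPM in AMI-1 libraries, and VWF, the clotting factor carrier, at 5.32 to 9.44 and 7.18 to 8.75 CPM. PECAM1, CLDN5, LYVE1, PROX1 and MMRN1 were not among the genes tested. Of markers of other cells, 0 of 8 tested for smooth muscle and pericytes, 0 of 6 for fibroblasts, 0 of 2 for leukocytes and 0 of 1 for keratinocytes were called. For all of these marker groups, endothelial included, 0 calls is near the share of 0.458% called over all genes tested. The summed level of the fibroblast markers was 2981 to 4445 CPM in control and 3103 to 4144 CPM in AMI-1 libraries, and that of the smooth muscle markers 790 to 1255 and 828 to 1151 CPM.

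The table for AMI-1 listed 92 genes that the table for AMI-5 did not. The smallest mean count in the table was 10, and a filter on the mean favours scarce genes that were higher in its own treated libraries, so the direction of these genes is no evidence. Of the 92, 55 passed the filter for testing and 2 were called, CYP1A1 and CYP1B1-AS1. The next lowest adjusted p-values belonged to the long noncoding RNA CTD-2319I12.2 (1.49 ± 0.34, adjusted p = 0.0540), SERPINB2 (adjusted p = 0.0686) and the pseudogene RP11-317B7.2 (1.199 ± 0.36, adjusted p = 0.179). CTD-2319I12.1, a called transcript on the strand opposite to CTD-2319I12.2, rose from 1.396, 1.49 and 2.20 CPM to 4.72, 2.24 and 4.17 CPM (1.07 ± 0.20, adjusted p = 0.0130; 0.274 without the pair numbered 1), and was chosen after its values were seen. Without the pair numbered 2 there were 4 calls among these genes.

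AMI-5, a brominated xanthene dye, was given at the same 100 µM for the same 16 h, so the difference between compounds was tested in a fit of all 9 libraries. Over 18284 genes in both tables the compounds differed for 916 (5.01%). The called genes were chosen by their change in the same AMI-1 libraries that enter this fit. How many of them differed, and in which direction, is therefore partly set by that choice. The compounds differed for 55 of the 81 called genes that both tables list: 43 of 48 rises, all higher with AMI-1, and 12 of 33 falls, of which 11 were lower with AMI-1 and SEPW1 was lower with AMI-5. Without the pair numbered 1 this number was 14, and those 14 differed in each fit without a pair. They include CYP1B1, higher with AMI-1 than with AMI-5 by 3.24 ± 0.18 on the log2 scale (adjusted p = 6.74e-09), VIPR1 by 2.11 ± 0.21, MMP1 by 1.12 ± 0.11, SHISA2 by 1.102 ± 0.08, TIPARP by 1.01 ± 0.09 and IGFBP4 by 0.80 ± 0.06. AHRR differed by 0.79 ± 0.09 (adjusted p = 5.67e-05), which was at the threshold without the pair numbered 1 (adjusted p = 0.0504).

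Both compounds were set against the same controls, so their changes are given side by side and no overlap is read from them. In the fit of 9 libraries the called rises had a median of 0.56 with AMI-1 and -0.07 with AMI-5, and the called falls -0.44 and -0.24. CYP1B1 was at 2.90 ± 0.18 with AMI-1 and -0.35 ± 0.23 with AMI-5, TIPARP at 0.86 and -0.15, and SHISA2 at 0.78 and -0.32, where the fall with AMI-5 passed the threshold (adjusted p = 0.0154). WNT5B was at -0.48 under both compounds, and the difference of -0.01 had a 95% interval of -0.16 to 0.14. For APLN (-0.49 and -0.53) the interval of the difference ran from -0.13 to 0.21, for IRS1 (-0.52 and -0.42) from -0.28 to 0.08, and for CCND1 (-0.30 and -0.39) from -0.02 to 0.20. GDF6 changed by -0.50 under AMI-1 and -0.08 under AMI-5, and IGFBP3 by -0.42 and 0.15, with differences of -0.42 ± 0.07 (adjusted p = 0.00148; 0.0976 without the pair numbered 1) and -0.56 ± 0.07 (adjusted p = 0.000115).

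**Figure D5:**
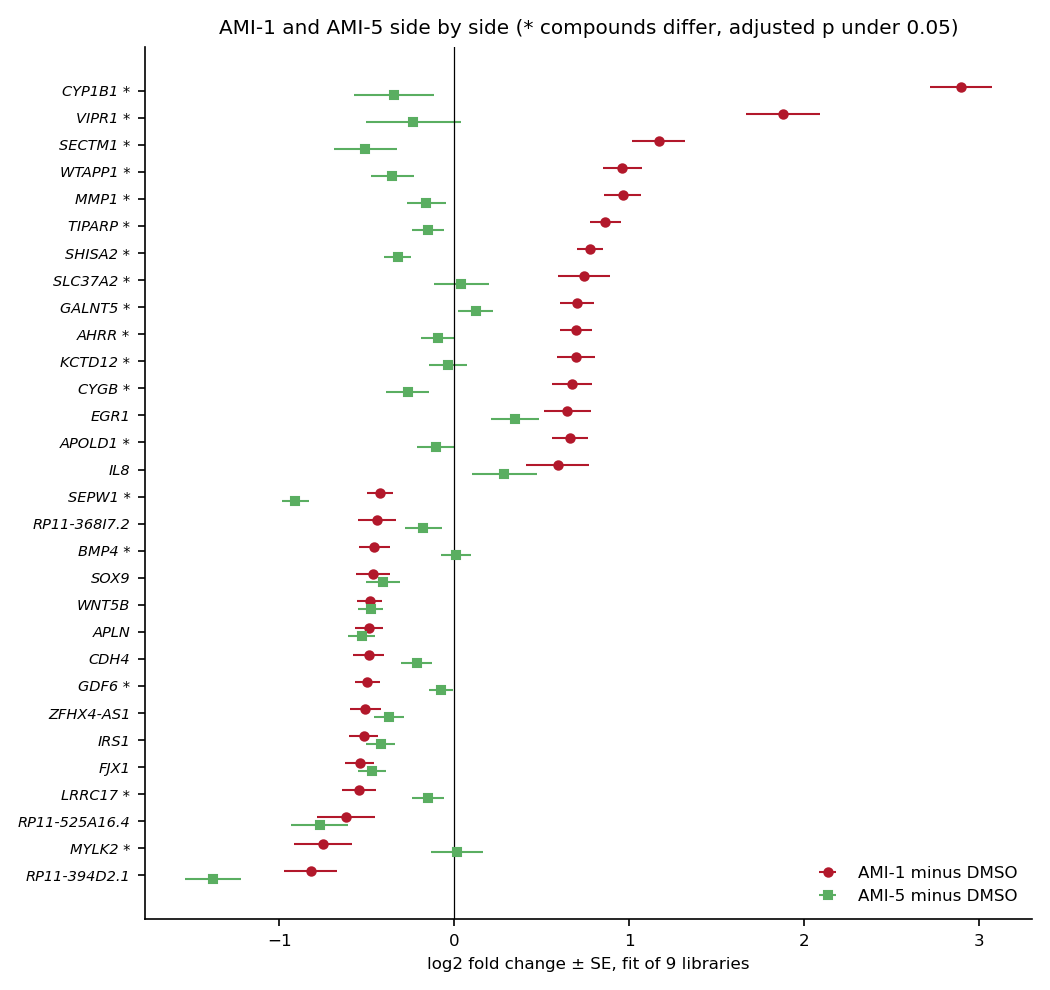
For 30 named genes, red circles give the log2 fold change ± SE of AMI-1 and green squares that of AMI-5, each against the shared DMSO controls in the fit of 9 libraries, and an asterisk marks genes for which the compounds differed. CYP1B1 and VIPR1 lie far to the right with AMI-1 alone, while the symbols for WNT5B, APLN and SOX9 nearly coincide.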

How the data were processed

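Poly-A RNA libraries were analysed from the raw read counts per gene that the authors deposited. The submitters' processing notes name BWA, bedtools and hg19. Tool versions, annotation and strand setting were not given in the sources used here. The members and gene lists were chosen with earlier results of these data known. Counts were tested with edgeR 4.0.16 (R 4.3.3; TMM, filterByExpr, quasi-likelihood F test, Benjamini-Hochberg over 18107 genes, threshold 0.05), with replicate number as a block. The filter removed 278 genes. CPM values use TMM-scaled totals, and log2 differences within pairs a prior count of 2. Pairing comes from the replicate numbers in the column names. It was checked by correlating deviations from group means across genes. Same-numbered libraries gave 0.828, 0.830 and 0.273, and others -0.821 to 0.260. Deviations from a group mean cancel out, so part of the negative values is built in. For number 3 the check does not separate its own pair (0.273) from control 3 with AMI-1 library 1 (0.260). No libraries agreed within sampling noise. The fit was tested on simulated data. Named genes are the 15 largest rises and falls that reached a mean of 5 CPM in the group where they were higher and had 1 sign in 3 pairs, up to 4 members per list with the lowest adjusted p, 5 genes found only in the AMI-1 table, and PRMT1, CARM1, PRMT5, PRMT6 and SETD7. Alternatives used DESeq2 1.42.0, limma 3.58.1, other scaling, no filter, no block, all 9 libraries, GC correction (lowess span 0.3) and each pair left out.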

Additional observations from a re-analysis of the deposited data

How the results depend on the processing

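All 83 called genes kept their sign in every setting where they were tested, and their number moved with the setting. Against 83 calls (50 higher, 33 lower), the DESeq2 Wald test with the replicate block made 46 (31 and 15), GC correction with the block 700 (285 and 415), and edgeR without the replicate block 0 (0 and 0). Leaving out 1 pair gave 31 to 597 calls, 25 to 251 higher and 6 to 346 lower. DESeq2 size factors, no filter, voom, robust edgeR and the fit of 9 libraries gave 74 to 80 calls. In all 7 other blocked fits 43 of the 83 were called, 21 without each pair in turn and 16 in both. Among genes found only in the AMI-1 table, 2 calls became 1 in DESeq2, 4 under GC correction and 0 without the block, and 2 to 4 without a pair. Of the 81 genes compared with AMI-5, 55 calls became 0 without the block and 14 to 60 without a pair. The cause was not tested. Uncalled genes near 0 changed sign in some settings. Without a pair, the log2 fold change of MT1L ran from -0.548 to 0.0299, the log2 fold change of KRT10 from -0.0019 to 0.0563, the log2 fold change of THY1 from -0.009995 to 0.116, the log2 fold change of SETD7 from -0.0710 to 0.0394 and the log2 fold change of CARM1 from -0.103 to 0.0246. SETD7 was at 9.43297e-05 in voom and CARM1 at 0.0171 under GC correction. Genes near 1 CPM, such as CYP1A1, rest on few reads.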
